A study of Mus musculus with 14 samples.

Results

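Messenger RNA of 45 mouse genes that make, lengthen, desaturate, move, store and burn fatty acids was compared between mice with and without the glucocorticoid receptor in regulatory T (Treg) cells. The 45 were chosen by symbol, as genes of these pathways, out of 24537 gene rows, and each had a row in both deposited tables. Earlier results of these data were known when the genes were chosen. They comprised 9 genes of synthesis, 13 of elongation and desaturation, 8 of activation and transport, 8 of storage and 7 of oxidation. Libraries came from 4 groups, all after hair depilation, which pulls out the hair shafts. Treg cells were sorted from skin at 1 day, from Foxp3YFP-Cre GRfl/fl mice (GR KO, 5 libraries) and from WT mice (GR WT, 3 libraries). Hair follicle stem cells (HFSC), gated as CD34+ and ITGA6high, were sorted at 4 days from GR KO mice (3 libraries) and GR WT mice (3 libraries). Cre is driven by Foxp3, the transcription factor that defines Treg cells, which aims the deletion at Treg cells and not at HFSC. The labels give no age or sex, do not say whether WT mice carry Foxp3YFP-Cre, and do not say whether each library is a separate mouse.

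Cells build fatty acids in the cytosol from acetyl-CoA, which citrate carries out of the mitochondria, and then lengthen and desaturate them at the endoplasmic reticulum. Acyl-CoA synthetases activate the acids for use, triglyceride enzymes pack them into lipid droplets, and the carnitine shuttle brings them into mitochondria for oxidation. In skin, the sebaceous gland is known for making large amounts of lipid, and epidermal cells use very long-chain acids for the barrier.

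The promoters of the 4 genes that rose in HFSC are shown first, to set the letters of known lipid and glucocorticoid motifs beside the genes that passed the test. Each covers 250 bases before to 50 bases after the RefSeq start on the gene's strand, 5′ to 3′, in GRCm38.p6, the assembly also called mm10. They lie at chr3:129532136-129532435 (plus strand, Elovl6), chr4:122961139-122961438 (minus strand, Mfsd2a), chr19:55253119-55253418 (plus strand, Acsl5) and chr4:86670010-86670309 (minus strand, Plin2). Capitals mark the motif letters found on either strand.
Elovl6: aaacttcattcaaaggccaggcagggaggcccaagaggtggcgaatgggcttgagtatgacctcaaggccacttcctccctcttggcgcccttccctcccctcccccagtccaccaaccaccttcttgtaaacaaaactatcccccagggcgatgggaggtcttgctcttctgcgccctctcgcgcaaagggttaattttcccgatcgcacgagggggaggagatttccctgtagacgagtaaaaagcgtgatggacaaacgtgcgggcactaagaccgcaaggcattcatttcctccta
Mfsd2a: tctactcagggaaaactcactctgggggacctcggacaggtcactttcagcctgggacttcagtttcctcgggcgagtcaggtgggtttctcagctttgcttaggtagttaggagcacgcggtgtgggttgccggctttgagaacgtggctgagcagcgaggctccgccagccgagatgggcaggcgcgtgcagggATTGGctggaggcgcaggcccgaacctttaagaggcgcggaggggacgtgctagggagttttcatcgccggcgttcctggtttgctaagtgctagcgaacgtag
Acsl5: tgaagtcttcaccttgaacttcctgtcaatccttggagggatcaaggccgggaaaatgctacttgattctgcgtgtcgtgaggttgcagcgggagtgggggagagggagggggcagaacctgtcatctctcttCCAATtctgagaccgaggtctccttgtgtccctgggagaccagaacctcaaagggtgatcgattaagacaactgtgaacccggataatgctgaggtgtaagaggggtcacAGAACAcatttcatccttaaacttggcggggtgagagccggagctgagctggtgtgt
Plin2: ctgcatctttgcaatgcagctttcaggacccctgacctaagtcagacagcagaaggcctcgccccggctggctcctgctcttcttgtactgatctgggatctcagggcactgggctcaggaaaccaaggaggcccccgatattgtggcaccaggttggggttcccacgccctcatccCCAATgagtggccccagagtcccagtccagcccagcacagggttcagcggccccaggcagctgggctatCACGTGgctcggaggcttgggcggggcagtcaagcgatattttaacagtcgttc

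The search covered TCACNCCA, letters of the sterol regulatory element, CACGTG, the E-box used by carbohydrate-responsive factors, CCAAT, the NF-Y box, and AGAACA, an arm of the glucocorticoid receptor's element. Both strands were read, CACGTG is the same on both, and the last 3 letters of TCACNCCA can also begin a CCAAT. Elovl6 held none of the 4 motifs in this window. Mfsd2a held a CCAAT box on the opposite strand, 54 bases before its start. Acsl5 held CCAAT at 117 and AGAACA at 7 bases before its start, and Plin2 held CCAAT at 73 bases before and a CACGTG that spans its start.

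Of the 45 genes, 38 had a promoter in the RefSeq table. CCAAT stood in 22 of these 38 (57.9%), against 41.1% of the promoters of 27025 genes of the same length. CACGTG stood in 7 (18.4%, against 8.09%), TCACNCCA in 3 (7.89%, against 4.97%) and AGAACA in 9 (23.7%, against 21.3%). These shares describe letters, not bound sites. Scd1, Scd2, Fads1, Fabp4, Fabp5, Dgat1 and Dgat2 had no entry.

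Values are in TPM, which scales each gene's reads by its length and by the library's total. The depth was 9.17 M to 14.46 M tags per library in Treg cells and 4.5 M to 7.99 M in HFSC, with GR WT replicate 1 the shallowest of the HFSC libraries. At a length of 2000 bases, 3 tags equalled 0.138 to 0.207 TPM for Treg cells, and 0.308 to 0.515 TPM for HFSC. Nr3c1, which encodes the receptor, ranged from 105.7 to 171 TPM in Treg cells of GR KO mice, against 170.5 to 233 TPM in GR WT mice (log2 fold change -0.71, limma adjusted p = 0.0722). In HFSC it ranged from 35.7 to 48.5 TPM in GR KO mice, against 34.8 to 48.9 TPM in GR WT mice. A value over the whole transcript does not show the deleted part. Foxp3 was at 137 to 205 TPM in GR KO and 160 to 281 TPM in GR WT Treg cells, and under 1 TPM in all HFSC libraries. Cd34 was at 130 to 225 TPM in GR KO and 109 to 149 TPM in GR WT HFSC, so each marker was present in the cells labelled for it. Cd34 was itself a sort gate, and neither level measures the purity of a sort.

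In HFSC, most fatty acid genes were higher in GR KO mice. All 45 could be tested with a mean of at least 1 TPM, and 40 had a positive log2 fold change. By limma on log2(TPM + 1), with p-values adjusted over all genes, 4 rose at an adjusted p under 0.05 (Elovl6, Mfsd2a, Acsl5 and Plin2) and 0 fell. Over the 12493 genes tested, 0.144% rose and 0.032% fell, 0.176% in all. Every GR KO library stood above every GR WT library for 32 of the 45 genes (71.1%), against 10.7% of all genes, and below for 1, Fads2, against 12.8%. The median log2 fold change was 0.66 over the 45 genes and -0.02 over all genes tested. Only 3 libraries stood on each side, and 19 of the 45 had an adjusted p under 0.1. In bulk samples, a gene's lower level can come from fewer cells of a type or from less RNA per cell, and these cannot be told apart.

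**Figure D1:**
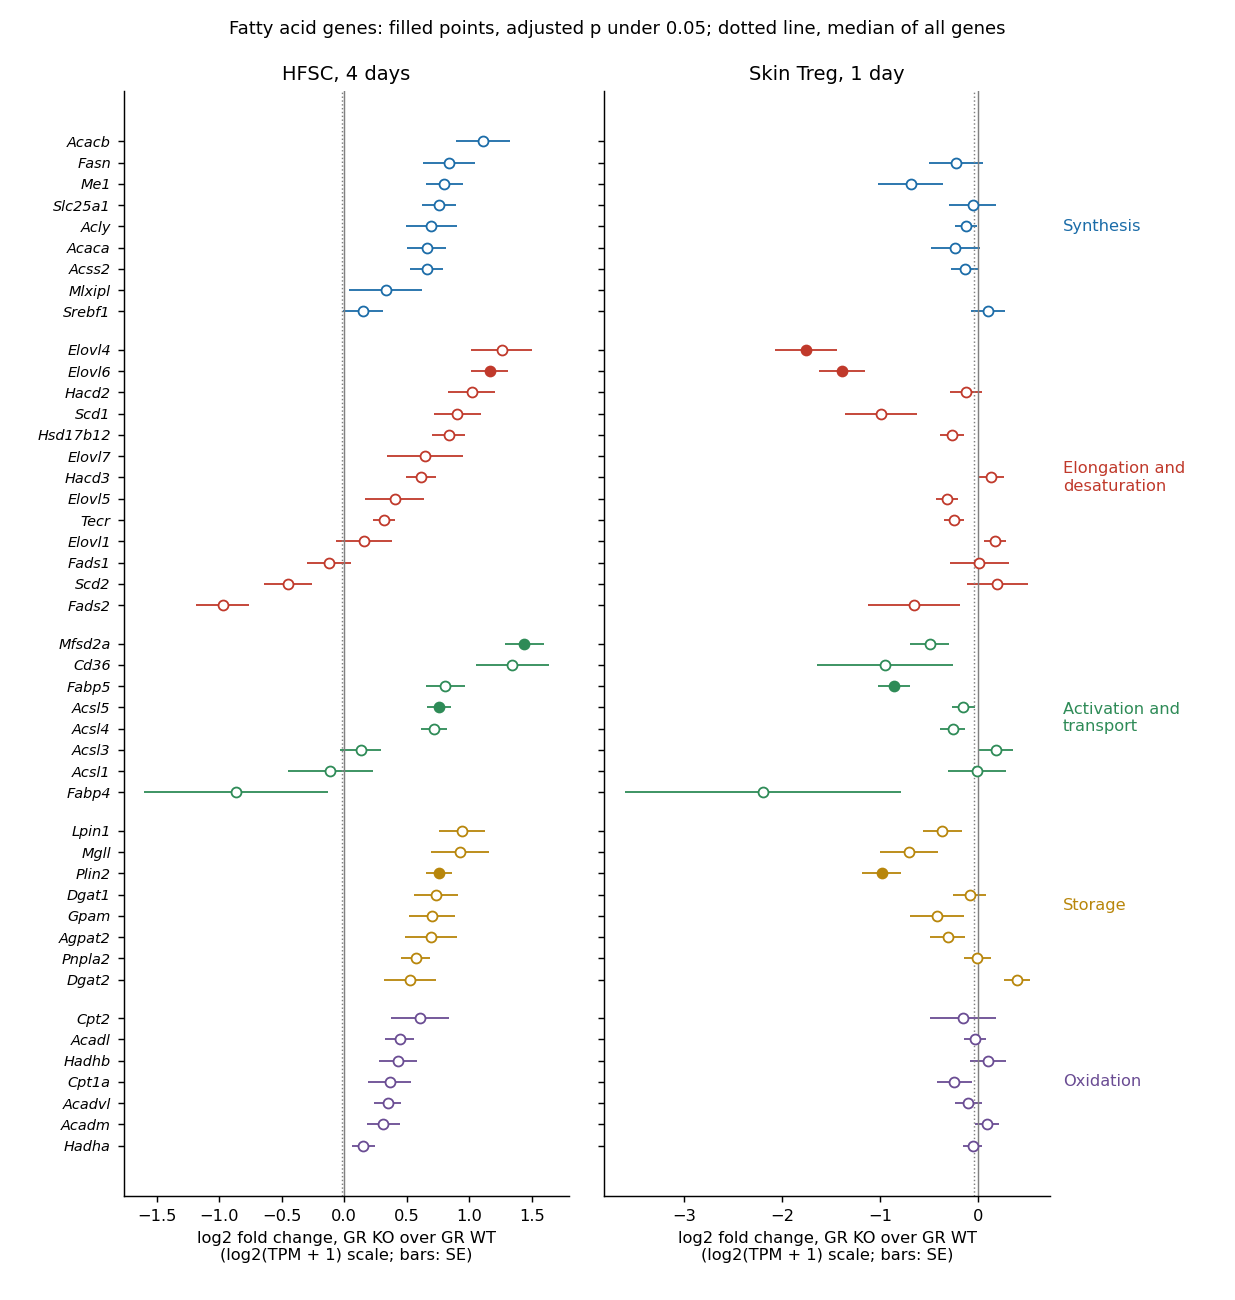
Log2 fold change of each fatty acid gene, GR KO over GR WT on the log2(TPM + 1) scale, with SE bars, by role, in HFSC at 4 days (left) and skin Treg cells at 1 day (right); the x axes differ in range. Filled points passed an adjusted p of 0.05 and the dotted line is the median of all genes; the HFSC points lie mostly to the right of 0 (median 0.66) and the Treg points mostly to the left (median -0.19), with 3 genes under the filter in Treg cells not drawn.

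**Figure D2:**
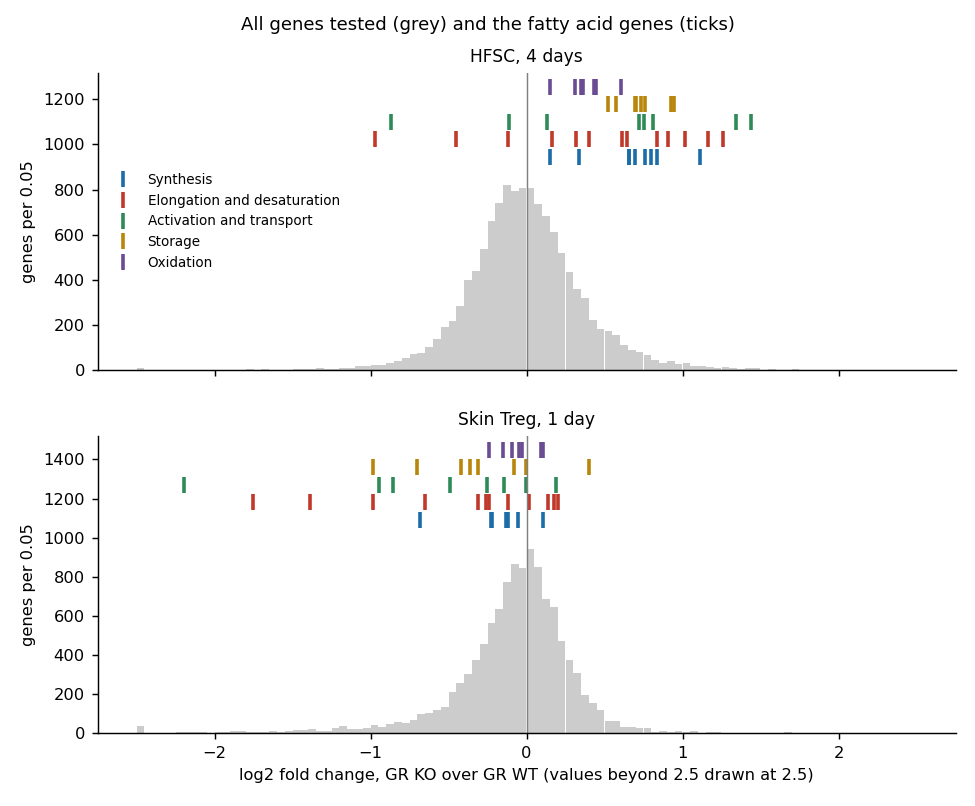
Histogram of log2 fold changes, GR KO over GR WT, of all genes tested in HFSC (top, 12493 genes) and Treg cells (bottom, 11579 genes), with a tick for each fatty acid gene coloured by role; the y axis counts genes per bin of 0.05 and values beyond 2.5 are drawn at 2.5. In HFSC, 40 of 45 ticks lie above 0, and in Treg cells 33 of 42 lie below 0.

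Library differences ran along with this pattern. GR WT replicate 1, the shallowest library, was the lowest of the 6 for 34 of the 45 genes, and GR KO replicate 3 was the highest for 31. Without GR WT replicate 1, every GR KO library still stood above both remaining GR WT libraries for 33 of 44 genes tested, against 13% of all genes, and the median was 0.53. With any of the 6 libraries left out, 0 to 5 of all genes were called, and Elovl6, Acsl5 and Plin2 missed the threshold each time (adjusted p 0.0594 to 0.173). Their log2 fold changes stayed at 1.04 to 1.28, 0.70 to 0.81 and 0.70 to 0.81. Mfsd2a passed only without GR WT replicate 1 or GR WT replicate 3 (adjusted p 0.0313 to 0.155 over the 6, log2 1.27 to 1.56). With voom on whole tags recovered from the TPM values, 23 of the 45 rose, in a comparison that called 240 genes higher and 243 lower in place of 18 and 4.

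Of the 9 synthesis genes in HFSC, all had a positive log2 fold change (median 0.70) and 0 passed the test. For 7 the groups did not overlap, with GR KO above, against 10.7% of all genes. Slc25a1 encodes the carrier that exports citrate from mitochondria. It was at 608, 667 and 739 TPM in GR KO libraries, against 332, 417 and 446 TPM in GR WT libraries (log2 0.76, SE 0.13, limma adjusted p = 0.0689). Me1, the cytosolic malic enzyme that supplies NADPH for synthesis, was at 157, 188 and 204 TPM in GR KO libraries, against 86.1, 113 and 116 TPM in GR WT libraries (log2 0.80, adjusted p = 0.0697). Acacb, the acetyl-CoA carboxylase of the mitochondrial surface, was at 86.6, 103 and 106 TPM in GR KO libraries, against 30.5, 54.8 and 53.5 TPM in GR WT libraries (log2 1.11, SE 0.22, adjusted p = 0.0749). For these 3 genes the groups were apart, and GR WT replicate 1 was the lowest library each time.

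The rest of the synthesis genes followed in the same range or showed smaller differences. Fasn, the fatty acid synthase, averaged 413 ± 54.6 TPM in GR KO and 236 ± 63.7 TPM in GR WT HFSC (SD, n = 3 each; log2 0.84, adjusted p = 0.117 by limma). Acly, which splits citrate, averaged 456 ± 68.5 TPM in GR KO and 286 ± 73.8 TPM in GR WT HFSC (log2 0.70). Acaca, which makes malonyl-CoA in the cytosol, had a log2 fold change of 0.66, and Acss2, which makes acetyl-CoA from acetate, also had 0.66. The transcription factor genes of the pathway differed least. Srebf1, which encodes a sterol regulatory element binding protein, was at 237, 228 and 311 TPM in GR KO libraries, against 190, 269 and 239 TPM in GR WT libraries (log2 0.15, adjusted p = 0.686), and the groups overlapped. Mlxipl, which encodes the carbohydrate-responsive factor ChREBP, stayed between 1.51 and 3.50 TPM in all 6 libraries, with overlapping groups.

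Elongation and desaturation held Elovl6, the elongase that extends palmitate to stearate, at chr3:129532386-129638493. Its level was 1434, 1815 and 1823 TPM in GR KO libraries, against 631, 803 and 833 TPM in GR WT libraries (log2 1.16, SE 0.15, limma adjusted p = 0.0413). The lowest GR KO library was above the highest GR WT library by a wide margin. Elovl4, the elongase of very long-chain acids in the skin barrier, was at 194, 387 and 348 TPM in GR KO libraries, against 107, 142 and 123 TPM in GR WT libraries (log2 1.26, SE 0.24, adjusted p = 0.0749). GR KO replicate 1 was well below the other two GR KO libraries, and without it Elovl4 passed the test (adjusted p = 0.0342).

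The enzymes that complete each elongation cycle were higher too, without passing the test. Hsd17b12, the ketoacyl-CoA reductase, was at 644, 750 and 794 TPM in GR KO libraries, against 347, 433 and 449 TPM in GR WT libraries (log2 0.83, adjusted p = 0.0565 by limma). Hacd2, a hydroxyacyl-CoA dehydratase, was at 135, 170 and 185 TPM in GR KO libraries, against 60.6, 92.1 and 89.8 TPM in GR WT libraries (log2 1.02, adjusted p = 0.0689). Its relative Hacd3 had a log2 fold change of 0.61, and Tecr, the enoyl-CoA reductase, one of 0.32, both with groups apart.

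The desaturases did not move together. Scd1, the stearoyl-CoA desaturase of skin and sebaceous gland, at chr19:44394450-44407709, had the highest level of all 45 genes. It was at 4015, 4734 and 4758 TPM in GR KO libraries, against 1769, 2852 and 2731 TPM in GR WT libraries (log2 0.90, SE 0.19, limma adjusted p = 0.0829). The groups were apart, but the difference did not pass the test. Its relative Scd2 averaged 86.0 ± 14.1 TPM in GR KO and 119 ± 28.8 TPM in GR WT HFSC (log2 -0.45, adjusted p = 0.290). Whether any reads were shared between the 2 genes in counting is not known. Fads2, the desaturase that starts polyunsaturated synthesis, was at 6.06, 4.67 and 4.33 TPM in GR KO libraries, against 11.03, 8.84 and 12.6 TPM in GR WT libraries (log2 -0.97, SE 0.21, adjusted p = 0.0909). It was the only member with all GR KO libraries below all GR WT libraries. Fads1, which acts after it, averaged 19.0 ± 4.42 TPM in GR KO and 20.5 ± 1.602 TPM in GR WT HFSC, with overlapping groups. Among the remaining elongases, Elovl1 (log2 0.16), Elovl5 (0.40) and Elovl7 (0.64) had adjusted p-values of 0.334 to 0.758.

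Among the activation and transport genes in HFSC, Mfsd2a and Acsl5 rose. Mfsd2a, which imports lysophospholipids that carry long-chain acids, at chr4:122946851-122961188, was at 105, 120 and 117 TPM in GR KO libraries, against 32.5, 44.1 and 49.1 TPM in GR WT libraries (log2 1.44, SE 0.16, limma adjusted p = 0.0413). It had the largest log2 fold change of the 45 genes. Acsl5, an acyl-CoA synthetase, at chr19:55253369-55296628, was at 467, 497 and 545 TPM in GR KO libraries, against 307, 288 and 297 TPM in GR WT libraries (log2 0.76, SE 0.10, adjusted p = 0.0413). Both genes had groups well apart, and for Acsl5 GR WT replicate 1 was the highest of the GR WT libraries.

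Fabp5, the fatty acid binding protein of epidermal cells, was at 2139, 2791 and 3212 TPM in GR KO libraries, against 1393, 1648 and 1550 TPM in GR WT libraries (log2 0.81, SE 0.16, limma adjusted p = 0.0749). Acsl4, an acyl-CoA synthetase that prefers arachidonate, was at 65.4, 66.5 and 64.5 TPM in GR KO libraries, against 36.6, 38.9 and 42.9 TPM in GR WT libraries (log2 0.72, adjusted p = 0.0565). Cd36, a fatty acid uptake receptor, averaged 38.7 ± 9.51 TPM in GR KO and 15.1 ± 5.53 TPM in GR WT HFSC (log2 1.35, adjusted p = 0.0906). All 3 had groups that did not overlap. Acsl1 (log2 -0.11) and Acsl3 (0.13), also acyl-CoA synthetases, had overlapping groups. Fabp4, the binding protein of adipocytes and macrophages, stayed at or under 6.49 TPM in all 6 libraries, was at 0 in 2 GR KO libraries, and passed the filter only through the GR WT mean.

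Storage genes in HFSC had a median log2 fold change of 0.72, and 7 of 8 had groups apart with GR KO above, against 10.7% of all genes. Plin2, which coats lipid droplets, at chr4:86656565-86670059, was at 1124, 1153 and 1281 TPM in GR KO libraries, against 642, 743 and 713 TPM in GR WT libraries (log2 0.76, SE 0.10, limma adjusted p = 0.0459). Lpin1, the phosphatidate phosphatase, was at 31.3, 34.6 and 32.7 TPM in GR KO libraries, against 12.4, 19.8 and 18.5 TPM in GR WT libraries (log2 0.94, adjusted p = 0.0749). Pnpla2, the lipase that starts triglyceride breakdown, was at 38.3, 42.9 and 45.5 TPM in GR KO libraries, against 28.0, 27.5 and 28.5 TPM in GR WT libraries (log2 0.57, adjusted p = 0.0796). Plin2 alone passed the test, and genes of both build-up and breakdown were higher. Gpam (log2 0.70), Agpat2 (0.70), Dgat1 (0.73) and Dgat2 (0.52), which add acyl chains to glycerol, and Mgll (0.93), the monoglyceride lipase, had adjusted p-values of 0.114 to 0.259. Only Dgat2 had overlapping groups.

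Oxidation genes had smaller log2 fold changes in HFSC. All 7 had positive ones, between 0.15 and 0.60 with a median of 0.36, and 0 passed the test (limma adjusted p 0.134 to 0.442). Groups were apart, with GR KO above, for 5, against 10.7% of all genes. Acadl, the long-chain acyl-CoA dehydrogenase, was at 194, 186 and 216 TPM in GR KO libraries, against 167, 133 and 139 TPM in GR WT libraries (log2 0.44, limma adjusted p = 0.134). Acadvl, the very long-chain enzyme, was at 134, 156 and 145 TPM in GR KO libraries, against 104, 123 and 115 TPM in GR WT libraries (log2 0.35, adjusted p = 0.175). Hadhb, a subunit of the trifunctional protein, was at 19.1, 24.7 and 20.1 TPM in GR KO libraries, against 14.9, 16.6 and 14.98 TPM in GR WT libraries (log2 0.43, adjusted p = 0.212). In each of these genes the groups were apart by a small margin. Hadha (0.15), Acadm (0.31), Cpt1a (0.36) and Cpt2 (0.60), the carnitine acyltransferases and their mitochondrial partners, completed the list.

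**Figure D3:**
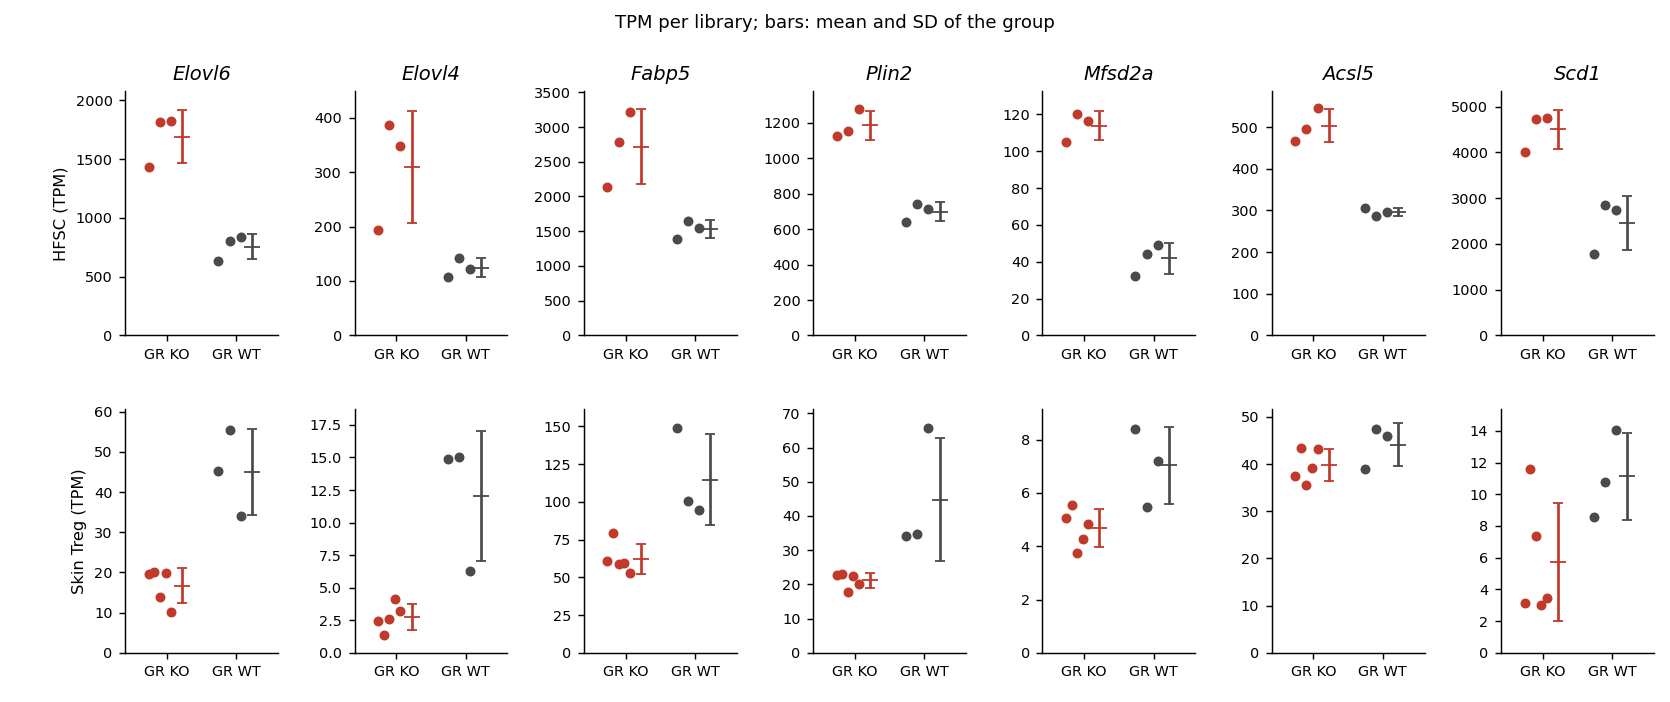
TPM of 7 fatty acid genes in each library of HFSC (top) and skin Treg cells (bottom), GR KO left and GR WT right in each panel; each point is a library and the bar is the group mean with its SD. In HFSC all 7 have every GR KO point above every GR WT point, and in Treg cells Elovl6, Elovl4, Fabp5 and Plin2 have every GR KO point below every GR WT point.

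Sebocyte markers were higher beside the fatty acid genes in HFSC. Their summed level over 10 genes, none of them among the 45, was 4300 to 6179 TPM in GR KO libraries, against 2449 to 3225 TPM in GR WT libraries, a ratio of means of 1.83. Of 9 tested, 0 passed the test and 8 had groups apart with GR KO above, against 10.7% of all genes. Their median log2 fold change was 0.99, against -0.02 over all genes. Fa2h, a fatty acid hydroxylase gene, averaged 1253 TPM in GR KO and 626 TPM in GR WT HFSC, and Mgst1 averaged 1269 TPM in GR KO and 626 TPM in GR WT HFSC. The 8 follicle stem cell and basal keratinocyte markers summed to 13973 to 17109 TPM in GR KO libraries, against 18253 to 23213 TPM in GR WT libraries. That sum is mostly Krt5, Krt14 and Krt15. Of the 8 genes, 0 passed the test and 3 had positive log2 fold changes (Cd34, Lgr5 and Itga6). All GR KO libraries stood below all GR WT libraries for 2 (Krt5 and Lhx2), against 12.8% of all genes. The median log2 fold change of the 8 was -0.12. Adipocyte markers were near the floor, with a sum over 8 genes of 8.10 to 11.2 TPM in GR KO and 5.56 to 11.2 TPM in GR WT libraries, and Plin1 and Lep at 0. The part of sebocyte and stem cell content in the result was not tested.

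In skin Treg cells, 42 of the 45 genes passed the filter, and 33 of the 42 had a negative log2 fold change. Elovl6, Elovl4, Fabp5 and Plin2 fell in GR KO mice and 0 rose. Over the 11579 genes tested, 1.31% fell and 0.199% rose, 1.51% in all. Every GR KO library stood below every GR WT library for 6 of the 42, against 5.1% of all genes, and above for 1, Dgat2, against 3.42%. The median was -0.19 over the 42 genes and -0.04 over all genes. Acacb, Mlxipl and Elovl7 were under the filter, at 1.56 TPM or less in every library, and Me1 and Mgll passed it only through the GR WT mean.

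Elovl6 was at 19.5, 20.1, 13.9, 19.8 and 10.2 TPM in GR KO libraries, against 45.2, 55.4 and 34.1 TPM in GR WT libraries (log2 -1.39, SE 0.23, limma adjusted p = 0.0129). Elovl4 was at 2.47, 1.38, 2.58, 4.10 and 3.20 TPM in GR KO libraries, against 14.9, 15.02 and 6.25 TPM in GR WT libraries (log2 -1.75, SE 0.32, adjusted p = 0.0198). Both groups were apart, and GR WT replicate 3 was the lowest GR WT library for both elongases. Fabp5 was at 60.7, 79.3, 59.1, 59.3 and 52.9 TPM in GR KO libraries, against 149, 101 and 94.5 TPM in GR WT libraries (log2 -0.86, SE 0.17, adjusted p = 0.0283). Plin2 was at 22.9, 23.0, 17.9, 22.3 and 20.01 TPM in GR KO libraries, against 34.2, 34.6 and 65.6 TPM in GR WT libraries (log2 -0.98, SE 0.20, adjusted p = 0.0394). The GR KO libraries lay close together for Fabp5 and Plin2, while a single GR WT library, replicate 1 for Fabp5 and replicate 3 for Plin2, stood well above the other two.

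Leaving out a library also ended Treg calls. Elovl6 lost its call only without GR WT replicate 1 (log2 -1.37, adjusted p = 0.0605 by limma). Elovl4 lost it without GR WT replicate 1 (log2 -1.57, adjusted p = 0.0926) or 2 (log2 -1.56, adjusted p = 0.0720). Fabp5 lost it without GR KO replicate 1, 3, 4 or 5 (log2 -0.85 to -0.80) or GR WT replicate 1 (log2 -0.65), at adjusted p-values of 0.0597 to 0.0838. Plin2 lost it without any of the 5 GR KO libraries (log2 -1.01 to -0.93) or without GR WT replicate 3 (log2 -0.68), at adjusted p-values of 0.0648 to 0.0903.

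The other marker genes of the pathway gave smaller or more variable values in Treg cells. Scd1 was at 3.17, 11.6, 7.35, 3.05 and 3.47 TPM in GR KO libraries, against 8.59, 10.8 and 14.1 TPM in GR WT libraries (log2 -0.99, SE 0.37, limma adjusted p = 0.267), and GR KO replicate 2 overlapped the GR WT range. Mfsd2a was at 5.07, 5.53, 3.73, 4.28 and 4.83 TPM in GR KO libraries, against 8.39, 5.49 and 7.21 TPM in GR WT libraries (log2 -0.49, adjusted p = 0.313), with GR KO replicate 2 just above GR WT replicate 2. By an exact two-sided permutation test of each of the 3 markers, the unadjusted p was 0.0179 for Elovl6, which is the smallest that 56 assignments allow, 0.0357 for Mfsd2a and 0.0714 for Scd1. Adjusted for these 3 exact tests, p was 0.0536, 0.0536 and 0.0714. In HFSC the same exact test gave 0.1 for each of the 3, the smallest that 20 assignments allow.

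Of the abundant members in Treg cells, Elovl5, an elongase of polyunsaturated acids, was at 207, 254, 218, 254 and 249 TPM in GR KO libraries, against 257, 324 and 302 TPM in GR WT libraries (log2 -0.31, limma adjusted p = 0.226). Dgat2, which makes triglyceride, was at 59.2, 74.8, 53.4, 53.4 and 63.2 TPM in GR KO libraries, against 42.3, 49.6 and 44.6 TPM in GR WT libraries (log2 0.40, adjusted p = 0.192). Both had groups apart, in opposite directions, and neither passed the test. Dgat1, the other triglyceride-forming acyltransferase, averaged 205 ± 34.1 TPM in GR KO (n = 5) and 219 ± 54.8 TPM in GR WT Treg cells (n = 3, SD), with overlapping groups.

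By role, the median log2 fold change in Treg cells was -0.13 for 7 synthesis genes, -0.25 for 12 elongation and desaturation genes, -0.37 for 8 activation and transport genes, -0.34 for 8 storage genes and -0.05 for 7 oxidation genes. None of the tested synthesis or oxidation genes passed the test. Acly averaged 50.5 ± 4.80 TPM in GR KO and 54.8 ± 3.66 TPM in GR WT Treg cells (SD), Acss2 13.5 ± 1.32 TPM in GR KO and 14.9 ± 1.67 TPM in GR WT, and Me1 0.992 ± 0.564 TPM in GR KO and 2.14 ± 0.769 TPM in GR WT. Acsl4 (log2 -0.25) and Acsl5 (-0.15) had overlapping groups, as did Mgll (-0.70). Among the oxidation genes, Cpt1a (-0.24), Acadvl (-0.09) and Acadm (0.09) had adjusted p-values of 0.583 to 0.816. The 22 other members tested, such as Fasn, Tecr and Hadha, had overlapping groups, log2 fold changes of -0.65 to 0.20 and adjusted p-values of at least 0.337.

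Fabp4 and Cd36, which macrophages, adipocytes and endothelial cells express, varied widely between Treg libraries. Fabp4 was at 41.0, 0.826, 0, 1.47 and 106 TPM in GR KO libraries, against 82.4, 8.63 and 44.8 TPM in GR WT libraries, with an adjusted p of 0.524 by limma. Cd36 was at 6.94, 0.917, 1.23, 0.488 and 13.1 TPM in GR KO libraries, against 11.6, 3.34 and 5.69 TPM in GR WT libraries (adjusted p = 0.578). Both genes were highest in GR KO replicate 5 and next in GR WT replicate 1, and their groups overlapped.

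Transcripts of several other skin cell types were also lower in the GR KO Treg libraries. For comparison, 1.31% of all genes tested fell, and 5.1% had every GR KO library below every GR WT library. The 8 follicle and basal keratinocyte markers summed to 23.9 to 79.7 TPM in GR KO libraries, against 289 to 515 TPM in GR WT libraries, and 4 of 5 tested fell (Cd34, Krt5, Krt14 and Krt15). The 10 sebocyte markers summed to 22.9 to 63.8 TPM in GR KO libraries, against 74.2 to 98.5 TPM in GR WT libraries. That sum was mostly Mgst1 and Soat1 (GR WT means 38.4 and 20.1 TPM). Of 7 tested, 2 fell (Mgst1, and Fa2h, which passed the filter only through the GR WT mean) and 4 had overlapping groups, Mc5r among them. Awat1 and Awat2, under the filter, also overlapped, and Plin5 was at 0. The 9 macrophage markers summed to 62.6 to 166 TPM in GR KO libraries, against 204 to 360 TPM in GR WT libraries, and 4 of 9 fell. All 3 lists had ranges that did not overlap between the groups.

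Suprabasal keratinocyte markers summed to 4.77 to 22.7 TPM in GR KO and 37.6 to 89.6 TPM in GR WT libraries, neutrophil markers to 0 to 20.8 TPM in GR KO and 75.7 to 325 TPM in GR WT libraries, and fibroblast markers to 21.9 to 106 TPM in GR KO and 112 to 190 TPM in GR WT libraries. These 3 sums did not overlap between the groups. The suprabasal sum was mostly Sbsn and the fibroblast sum mostly Dcn (GR WT means 39.7 and 91.1 TPM). Of 4 suprabasal markers tested, 2 fell (Sbsn, and Krtdap, which passed the filter only through the GR WT mean). Of 3 neutrophil markers tested 2 fell, and of 6 fibroblast markers 0 fell and 1, Lum, had groups apart. Over all genes tested, 1.31% fell. Endothelial sums overlapped, at 15.05 to 22.1 TPM in GR KO and 18.2 to 38.0 TPM in GR WT libraries. Adipocyte markers also overlapped, at 1.29 to 4.19 TPM in GR KO and 1.34 to 3.76 TPM in GR WT libraries, with Plin1, Plin4, Lep and Retn at 0. The 6 Treg markers, mostly Ctla4, summed to 4545 to 7627 TPM in GR KO and 6930 to 7653 TPM in GR WT libraries, which overlapped. Of these 6, Il2ra fell, at 317 to 344 TPM in GR KO and 453 to 519.5 TPM in GR WT libraries (log2 -0.55, limma adjusted p = 0.00576).

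Set against the mean of GR WT HFSC, from a table made separately, the level of Elovl6 in Treg libraries was 1.35% to 2.66% in GR KO and 4.51% to 7.34% in GR WT mice. Plin2 was at 2.56% to 3.29% in GR KO and 4.89% to 9.38% in GR WT, Fabp5 at 3.46% to 5.18% in GR KO and 6.18% to 9.75% in GR WT, and Elovl4 at 1.11% to 3.30% in GR KO and 5.04% to 12.1% in GR WT. The groups did not overlap for any of these 4 genes. Of the sebocyte markers, Mgst1 was at 1.08% to 3.44% in GR KO and 4.94% to 7.85% in GR WT, Fa2h at 0.0470% to 0.203% in GR KO and 0.452% to 0.738% in GR WT, and Krt79 at 0.118% to 1.048% in GR KO and 0.688% to 1.06% in GR WT. Of the keratins, Krt5 was at 0.0183% to 0.284% in GR KO and 0.697% to 1.12% in GR WT, Krt14 at 0.0561% to 0.855% in GR KO and 1.55% to 2.93% in GR WT, and Krt15 at 0.0248% to 0.363% in GR KO and 2.20% to 4.37% in GR WT. Among the genes scaled, the 4 fatty acid genes in GR WT Treg libraries overlapped Mgst1 and were above Fa2h, Krt79 and the 3 keratins. Most genes of the sebocyte and follicle lists were not scaled, so this order does not cover those lists. Cd34, on the follicle list, averaged 2.76 TPM in GR KO and 13.2 TPM in GR WT Treg libraries, against 126 TPM in GR WT HFSC. In the same order, Soat1 averaged 14.8 and 20.1 TPM, against 173 TPM. Far2 averaged 1.65 and 8.33 TPM, against 272 TPM, and Lhx2 0.0298 and 0.966 TPM, against 382 TPM. Percentages of these genes were not computed. Of other pathway genes, Scd1 was at 0.350% to 0.574%, Elovl3 at 1.13% to 4.38% and Mfsd2a at 13.1% to 20.025% in GR WT. The part of RNA from other skin cells in the fall of Elovl6, Plin2, Fabp5 and Elovl4 was not tested.

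**Figure D4:**
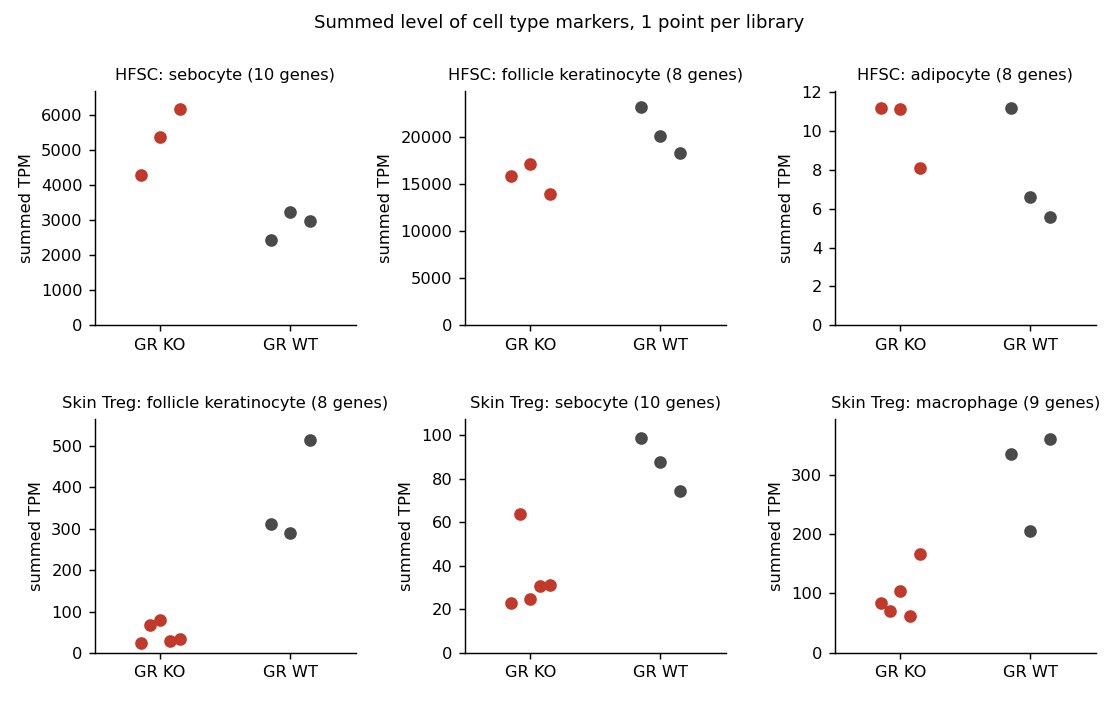
Summed TPM of cell type marker lists in each library, GR KO left and GR WT right, for HFSC (top: sebocyte, follicle keratinocyte and adipocyte lists) and skin Treg cells (bottom: follicle keratinocyte, sebocyte and macrophage lists); each point is a library and every y axis starts at 0. Sebocyte sums are 4300 to 6179 in GR KO and 2449 to 3225 in GR WT HFSC, and in Treg cells all 3 lists are lower in every GR KO library.

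Levels differed widely between the cell types. In GR WT mice, all HFSC libraries stood above all Treg libraries for 37 of the 45 genes and below for 4 (Fabp4, Dgat1, Elovl5 and Hacd3). The median HFSC to Treg ratio was 5.22. The TPM tables were made separately, from HFSC at 4 days and Treg cells at 1 day. The share over all genes was not computed, so the count does not set these genes apart from others. The highest GR WT means in HFSC were those of Scd1 (2451 TPM), Fabp5 (1530 TPM), Tecr (1145 TPM), Elovl6 (756 TPM) and Plin2 (699 TPM). Elovl6 and Plin2 were neighbours in that order that did not differ beyond their spread (SD 109 and 51.9 TPM). The highest GR WT means in Treg cells were those of Elovl5 (294.5 TPM), Hacd3 (227 TPM) and Dgat1 (219 TPM), with Hacd3 and Dgat1 within their spread (SD 42.9 and 54.8 TPM). Elovl6, Elovl4, Fabp5, Plin2 and Me1 had groups apart in opposite directions in the 2 tables, higher in GR KO HFSC and lower in GR KO Treg cells. Of these, Me1 passed the filter in Treg cells only through the GR WT mean (limma adjusted p = 0.389). The difference between the cell types was not tested.

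A second list of 77 genes of the same pathways, none of them among the 45, was measured beside them. In HFSC, 56 were tested, 0 rose or fell by limma (23 higher and 1 lower at an unadjusted p under 0.05), and the median log2 fold change was 0.28. Slc27a4, a fatty acid transport protein, was at 309, 401 and 434 TPM in GR KO libraries, against 171, 204 and 219 TPM in GR WT libraries (log2 0.94, adjusted p = 0.0570). Insig1, a sterol sensor that holds back the sterol factors, averaged 200.3 ± 21.5 TPM in GR KO and 114 ± 17.3 TPM in GR WT HFSC (log2 0.81, adjusted p = 0.0674), and Decr1, an enzyme of unsaturated acid oxidation, 90.0 ± 4.20 TPM in GR KO and 60.7 ± 2.21 TPM in GR WT (log2 0.56, adjusted p = 0.0689). Groups were apart, with GR KO above, for 24 of the 56 (42.9%), against 10.7% of all genes.

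In Treg cells, 50 of the 77 were tested, 1 fell and 0 rose, with a median of -0.06. The gene that fell was Elovl3, an elongase of sebaceous gland and brown fat, at 0.260, 0.840, 0.729, 0.298 and 0.491 TPM in GR KO libraries, against 7.94, 7.55 and 2.05 TPM in GR WT libraries (log2 -2.03, SE 0.37, limma adjusted p = 0.0211). It passed the filter only through the GR WT mean, and its call was lost without GR KO replicate 5, GR WT replicate 1 or GR WT replicate 2 (log2 -2.03 to -1.76, adjusted p 0.0501 to 0.1001). G0s2, an inhibitor of Pnpla2, had a log2 fold change of -2.24 (adjusted p = 0.113), and Cidea, a lipid droplet protein that is also on the sebocyte list, -1.70 (adjusted p = 0.157), both with overlapping groups. Of 20 cholesterol synthesis genes, which share the sterol factors with fatty acid synthesis, 1 rose in HFSC, against 0.144% of all genes. Groups were apart, with GR KO above, for 17 (85%, against 10.7% of all genes). The median was 0.69, against -0.02 over all genes. The 45 fatty acid genes had 71.1% and 0.66, so the shift in HFSC was not particular to them. In Treg cells 0 of the 20 passed the test, with a median of -0.20, against -0.04 over all genes.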

How the data were processed

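RNA of 14 sorted samples was made, per the labels' protocols, into stranded mRNA libraries. The submitters' processing notes list mm10 with HOMER, STAR, Trim Galore and FastQC, and their roles, versions and strand setting were not given in the sources used here. The authors deposited TPM values in a separate table for each cell type, so no test crossed tables. Columns of the HFSC table bear an unexplained prefix, and their genotype and replicate number gave the sample. TPM multiplied by length came to whole tags, within 0.1 of a tag, for 100% of low values. Between 82.3% and 89.6% of tag numbers were even, so tags are not independent molecules, and floors cover counting error only. Chi-square per degree of freedom between replicates was 2.74 to 16.4, above sampling noise, so none looked copied. The p-values measure only the spread between samples, which may be technical.

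Genes averaging at least 1 TPM in a table were fitted on log2(TPM + 1) by limma 3.58.1 (R 4.3.3), using a trended prior, two-sided, and Benjamini-Hochberg adjustment over all genes at 0.05. This scale understates changes of low genes. The fit was also run on simulated data with the same spread for every gene. Those data cannot show how calls behave under the spread between these replicates. Elovl6, Scd1 and Mfsd2a also had an exact permutation test (SciPy 1.17.1). Named genes are these 3, each member past 0.05, and per role and table the 3 smallest p and the most abundant member. Other members were named after their values were seen, to account for all 45. The members and lists were chosen with earlier results of these data known. Promoters are RefSeq's. Alternatives were other pseudocounts (0.1 and 5), filters (none and 5 TPM), scalings, priors, sample weights, voom on recovered tags, a replicate block and each library left out. A planned comparison of proteins was not run.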

Additional observations from a re-analysis of the deposited data

Results flagged for a closer look

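Among the GR KO Treg libraries, Acly in replicate 1 stood apart from the other 4, at 42.2 TPM against 51.4 to 53.9 TPM, with a gap of 0.805 of the group's range. It was the only such library in 21 groups checked, and chance gives about 1 in 20.

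The groups were apart in opposite directions in HFSC and Treg cells for 5 genes, and the difference between the cell types was not tested. Over all genes tested, 10.7% had every GR KO library above every GR WT library in HFSC, and 5.1% below in Treg cells. The share with both was not computed. The log2 fold change in HFSC and in Treg cells was 1.16 and -1.39 for Elovl6, 1.26 and -1.75 for Elovl4, 0.81 and -0.86 for Fabp5, 0.76 and -0.98 for Plin2, and 0.80 and -0.68 for Me1. In Treg cells Me1 passed the filter only through the GR WT mean.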

How the results depend on the processing

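Over 56 results and 947 values, 760 kept their direction and their side of the threshold or stayed within the spread, 71 moved, 55 lost the threshold, 57 gained it and 4 changed sign. The 45 genes' median log2 fold change in HFSC stayed between 0.519 and 0.729 in all settings, and in Treg cells between -0.24 and -0.10. Counts depended on the setting more than medians did, and the cause was not tested. Of HFSC members, 0 rose with no filter, 10 with median ratio scaling, and 23 with sample weights or voom. With sample weights 1 member, Fads2, also fell. With each library left out, 0 to 1 rose. Over all HFSC genes, 22 calls became 2 with no filter, 48 at a mean of at least 5 TPM, 69 with median ratio and 55 with quantile scaling, 51 with a robust prior, 584 with sample weights, 483 with voom, and 0 to 5 with a library left out. Of Treg members, 1 fell with no filter, 2 with quantile scaling, and 1 to 3 with a library left out; over all Treg genes, 84 to 186 calls stood with a library left out, 84 without GR WT replicate 3 and 107 without GR WT replicate 1, and voom called 253. Elovl6 and Mfsd2a in HFSC missed the threshold with no filter (1.16 and 1.44); with a library left out, Elovl6 ranged from 1.04 to 1.28 and Mfsd2a from 1.27 to 1.56. Elovl6 in Treg cells missed it without GR WT replicate 1 (-1.37; -1.57 to -1.23 over the 8 libraries). Scd1 in HFSC passed it with sample weights (0.73) and voom (0.85). The other pathway genes of Treg cells had a median of 0.001779 with quantile scaling, and -0.13 to 0.038 with a library left out (0.038 without GR WT replicate 3); 0 fell at 5 TPM or with quantile scaling, 2 with voom, and 0 to 2 with a library left out. In HFSC their count was 1 at 5 TPM, with quantile scaling or a robust prior, 2 with median ratio scaling, 11 with weights and 12 with voom, and their median was 0.19 with a pseudocount of 5, 0.20 with no filter or weights, and 0.15 to 0.33 with a library left out (0.15 without GR WT replicate 1). Of the cholesterol genes, 1 fell in Treg cells with voom, and in HFSC 0 rose with no filter or with any library left out, 4 at 5 TPM, with either scaling or a robust prior, 14 with weights and 13 with voom. Dgat1 in Treg cells changed sign without GR WT replicate 2 (-0.25 to 0.10 over the 8 libraries). Same-numbered deviations correlated at -0.117 to 0.17 in Treg cells and -0.042 to 0.0619 in HFSC, and not every sample correlated best with its own number. With so few libraries per group, these correlations cannot decide whether replicate numbers pair the samples. With the replicate number as a block, 111 Treg and 66 HFSC genes were called, 1 Treg member fell and 13 HFSC members rose, Scd1 among them (0.90), and 0 other pathway genes fell in Treg cells while 3 rose in HFSC, as did 3 cholesterol genes; Dgat1 in Treg cells stood at 0.033. Depth limits genes near 1 TPM most, and in the shallower HFSC libraries more than in the Treg ones.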
